A study of Mus musculus with 6 samples.

Results

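Imprinted genes are genes that mammals express mainly from the copy inherited from 1 parent, and 39 mouse genes of this kind at 17 loci were followed here. Members were taken by name: a gene's probe sets were those whose platform annotation names that gene and no other, and the gene took the probe set with the highest mean signal. Of the 39 members, 37 had a probe set of their own, among 18193 genes so named on the array, and 35 had a mean signal above the floor described below and are called measured. RNA was read on 6 Affymetrix arrays, with 2 mouse lines of embryonic stem cells sampled once each at 3 times. The 2 lines derive from Dnmt1/3a/3b triple knockout cells, which have lost the genes of the DNA methyltransferases, and in each a DNMT1 was put back and is expressed ubiquitously. In the deletion line that protein lacks its N-terminal 602 amino acids, and in the full-length line it is complete. Day 0 samples were stem cells in 10% fetal bovine serum with leukaemia inhibitory factor (LIF). Day 4 samples had been embryoid bodies for 1 day and adherent cells without LIF for 3 days. Day 7 samples had spent 3 more days in medium with 10% serum replacement and 10 ng/ml Activin A, added to bring on primitive streak formation. Each form of DNMT1 was present in 1 line, so the form and the line cannot be told apart. The source label of the deletion line at day 0 speaks of differentiated cells, its title gives day 0, and the title was used.

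An imprinted locus carries DNA methylation that was set on 1 parental copy in the egg or the sperm. After fertilisation DNMT1 copies this methylation at each cell division, and the marked and unmarked copies are then expressed differently. Stem cells without DNMT1 lose the marks, and in mouse a DNMT1 put back later is known not to restore them without passage through the germ line. The N-terminal part of DNMT1 is known for binding PCNA and for bringing the enzyme to replication foci. The arrays read the summed RNA of both copies. Which copy is expressed is therefore given below as background from mouse genetics and was not measured, and neither was methylation.

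At the Peg3, Nnat and Mest loci the maternal methylation lies over the promoter itself, and at the locus of Dlk1 and Meg3 it is set in sperm between the 2 genes. The 250 bases upstream of these start sites are shown because methylation in mammals sits on CpG pairs, which are in capitals, and because these are the genes on which the results below turn. All sequences are from RefSeq on the build GRCm38.p6, 5′ to 3′ on the strand of the gene. Peg3 lies on the minus strand at chr7:6730420-6730669 with 8 CpG pairs, Nnat on the plus strand at chr2:157559828-157560077 with 12, and Mest on the plus strand at chr6:30737800-30738049 with 14. Meg3 lies on the plus strand at chr12:109540746-109540995 with 10 CpG pairs, and Dlk1 on the plus strand at chr12:109452573-109452822 with 8.
Peg3: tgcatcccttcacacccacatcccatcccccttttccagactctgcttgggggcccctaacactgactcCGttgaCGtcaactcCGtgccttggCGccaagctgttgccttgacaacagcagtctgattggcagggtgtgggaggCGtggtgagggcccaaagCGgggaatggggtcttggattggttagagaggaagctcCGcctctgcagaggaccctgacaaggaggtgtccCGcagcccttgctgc
Nnat: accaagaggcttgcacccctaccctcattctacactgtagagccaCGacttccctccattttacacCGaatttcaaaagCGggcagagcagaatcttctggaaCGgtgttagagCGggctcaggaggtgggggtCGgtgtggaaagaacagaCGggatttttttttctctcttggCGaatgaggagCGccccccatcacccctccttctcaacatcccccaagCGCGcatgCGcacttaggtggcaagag
Mest: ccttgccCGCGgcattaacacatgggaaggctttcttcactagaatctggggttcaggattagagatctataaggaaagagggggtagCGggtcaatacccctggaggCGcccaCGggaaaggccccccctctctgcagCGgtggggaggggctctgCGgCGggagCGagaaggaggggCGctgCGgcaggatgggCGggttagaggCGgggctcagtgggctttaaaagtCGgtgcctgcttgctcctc
Meg3: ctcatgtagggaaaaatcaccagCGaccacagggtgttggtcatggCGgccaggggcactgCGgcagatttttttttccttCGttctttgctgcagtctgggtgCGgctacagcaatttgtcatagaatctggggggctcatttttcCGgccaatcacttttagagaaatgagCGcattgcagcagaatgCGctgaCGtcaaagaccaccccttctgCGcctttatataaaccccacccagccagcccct
Dlk1: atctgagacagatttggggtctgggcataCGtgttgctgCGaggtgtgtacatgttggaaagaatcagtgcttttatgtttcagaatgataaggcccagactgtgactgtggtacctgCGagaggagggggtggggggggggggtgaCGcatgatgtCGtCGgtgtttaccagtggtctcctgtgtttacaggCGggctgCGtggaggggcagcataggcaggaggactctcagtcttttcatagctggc

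Of the 39 members, 33 matched an entry of the promoter table by symbol. Taking the window of 300 bases with the most CpG pairs for each gene (250 before the start and 50 after it), the members had a median of 17 pairs, against 8 over all 27025 genes of the table. The hexamer TGCCGC, which the imprint-keeping factor ZFP57 binds when it is methylated, was searched on both strands. It stood in the windows of 9 of 33 members (27.3%), against 12.2% of all genes. Nnat, Mest, Plagl1, Copg2, Zim1, Grb10 and Meg3 were among them. The hexamer holds a CpG pair itself, and genes matched for CpG pairs were not compared. GCCATNTT, the motif of YY1 known from the Peg3 region, stood in 3 of 33 (9.09%), against 6.26% of all genes. The 3 were Ube3a, Mkrn3 and Slc38a4, and the windows of Peg3 and Usp29 did not hold it. These matches describe letters in short windows and no binding. The start sites of Peg3 and Usp29 lay 164 bases apart on opposite strands, and their windows shared 263 bases.

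Several members are also host transcripts of microRNAs. By position and strand, 10 hairpins of the RefSeq table lay within Mirg, 3 within Rian, 1 within Meg3 and 1 within Mest. Mature forms are shown with the seed, bases 2 to 8, in capitals, because they are products of the host RNAs described below. The microRNAs themselves were not measured on these arrays. The first of the forms below lies within Meg3, the second within Rian, the next 3 within Mirg and the last within Mest. Of the forms shown, mmu-miR-453 and mmu-miR-496a-5p share a seed.
mmu-miR-770-5p: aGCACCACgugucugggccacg
mmu-miR-370-3p: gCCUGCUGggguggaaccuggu
mmu-miR-410-3p: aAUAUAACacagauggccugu
mmu-miR-453: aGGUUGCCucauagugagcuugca
mmu-miR-496a-5p: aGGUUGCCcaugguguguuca
mmu-miR-335-5p: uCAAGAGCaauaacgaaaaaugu

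Levels are log2 MAS5 signals as deposited. A floor of 5.37 (a signal of 41.2) was set before any difference was taken, and 13277 genes with a mean signal above it were tested. Between 13081 and 13448 genes per array reached it. Line and day were fitted together with limma over the 6 arrays, so a p-value sets a mean difference against how far the 2 lines' courses depart from each other, and a gene was called at a Benjamini-Hochberg adjusted p under 0.05 over all 13277 genes. Differences at a single day compare 1 array with 1 array and have no test. The RNA came from whole cultures, in which fewer cells of a type and less RNA per cell cannot be told apart. All 10 pluripotency markers were above the floor on every array, with Pou5f1 between 13.21 and 14.02. Markers of other cell types differed between the arrays. The summed signal of 14 trophoblast markers was 4588, 12835 and 20124 in the deletion line at days 0, 4 and 7, against 4772, 26487.5 and 60729 in the full-length line. Krt18 and Krt8 were the brightest of these at days 4 and 7 in both lines. At day 7 they read 12.92 and 12.70 in the deletion line, against 14.22 and 14.17 in the full-length line. Cdx2 lay between 5.23 and 5.93 over the 6 arrays. The summed signal of 18 fibroblast markers was 20239, 4042.5 and 5125 in the deletion line, against 10673, 8493 and 7098 in the full-length line, and 17 of the 18 were brighter in the deletion line at day 0. Acta2 was the brightest of them on the full-length arrays of days 4 and 7, at 12.71 and 12.23. It read 11.07 and 10.98 on the deletion arrays of those days. The median difference of the 18, deletion minus full-length, was 0.00 at day 4 and 0.18 at day 7. For 15 markers of extraembryonic endoderm the summed signal was 1395, 6854.5 and 6681 in the deletion line, against 1442, 3630 and 2739 in the full-length line, and all 15 had a fitted line difference above 0.

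The measured members stood lower in the deletion line at days 4 and 7, and the paternally expressed members did so more than the maternally expressed ones. Over all 35, the median difference between the lines, deletion minus full-length, was -0.04 at day 0, -0.30 at day 4 and -0.79 at day 7. Over all 13277 genes it was -0.05, -0.02 and -0.05. For the 18 paternally expressed members it was 0.05, -0.56 and -0.87, with 9, 14 and 14 of them lower in the deletion line. For the 16 maternally expressed members it was -0.23, -0.04 and -0.46, with 11, 9 and 11 of them lower in the deletion line. Whether these 2 sets differ was not tested. Over the same days the extraembryonic endoderm markers had median line differences of 0.00, 0.97 and 0.81, and their part in the members' values was not tested.

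At day 0, 4 members were at least 2-fold higher in the deletion line, namely Igf2, Ascl2, Plagl1 and Dcn, where 3.15% of all genes were, and 0 were lower, where 2.82% of all genes were. At day 4, 0 members were at least 2-fold higher (2.43% of all genes) and 7 of 35 were lower (3.54% of all genes). The 7 were Peg3, Nnat, Igf2, Airn, Magel2, Plagl1 and Dcn, and 6 of them are paternally expressed. At day 7, 0 members were higher (3.95% of all genes) and 10 of 35 were lower (8.92% of all genes), namely Peg3, Nnat, Sgce, Peg10, Igf2, Cdkn1c, Phlda2, Ascl2, Ndn and Plagl1. Of these 10, 7 are paternally expressed. Below the full-length line at all 3 days were 13 of 35 members, against 20.2% of all genes, and above it at all 3 days was 1, Nap1l5, against 13.7% of all genes. Meg3, Rian and Mirg were among the 13, but their probe sets above the floor did not share a sign. Mean line differences over these probe sets ran from -0.69 to 0.91 for Meg3, -0.47 to 0.21 for Rian and -0.35 to 0.56 for Mirg. For Peg3, Airn and Gnas, also among the 13, all were below 0.

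**Figure D1:**
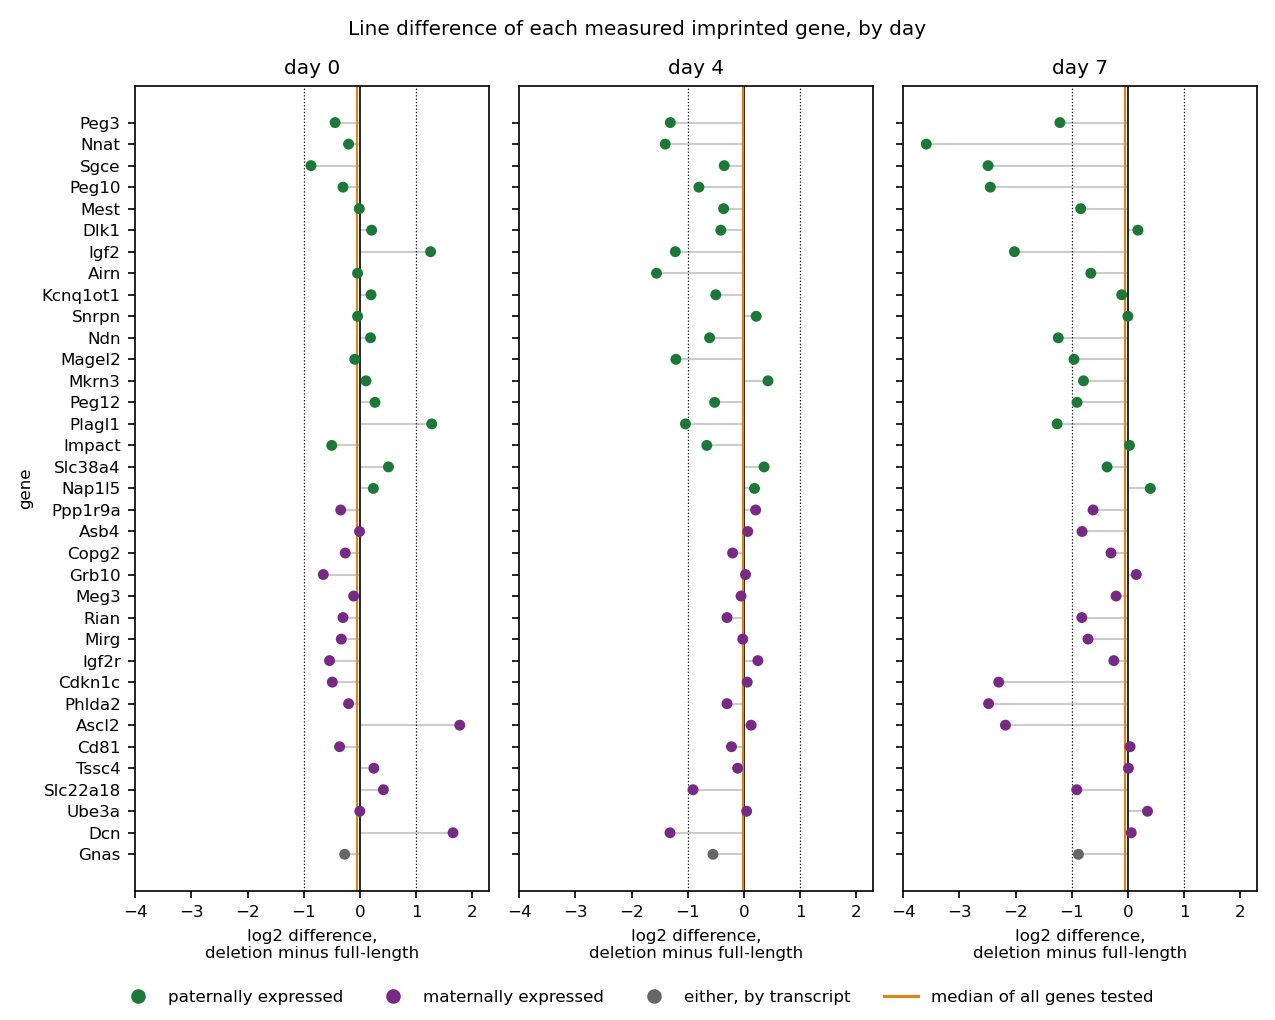
Log2 difference between the lines (deletion minus full-length, x axis) of each of the 35 measured members (y axis) at days 0, 4 and 7, from 1 array per line and day. Dotted lines mark 2-fold and the orange line the median of all 13277 genes. At day 7 the points of Nnat, Sgce, Peg10, Igf2, Cdkn1c, Phlda2 and Ascl2 lie below -2, and none lies above 1.

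In the fit over all 3 days, 0 members were called between the lines, and 0% of all genes were. At an unadjusted limma p under 0.05, 9 of 35 members were lower in the deletion line, against 7.19% of all genes, and 0 were higher, against 5.05% of all genes. The 9 were Peg3, Nnat, Sgce, Peg10, Mest, Rian, Phlda2, Magel2 and Gnas. Of these 9, 6 are paternally expressed. Over all 35 the fitted median was -0.34, against -0.06 over all genes. It was -0.175 without either array of day 7 and -0.56 without either array of day 0. The smallest adjusted p of a member, for Peg3, was 0.275.

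Peg3, a zinc finger protein gene named for its paternal expression, was lower in the deletion line at every day and had the smallest p-value of the members for the line difference. It read 11.53, 11.79 and 11.64 in the deletion line at days 0, 4 and 7, against 11.97, 13.10 and 12.85 in the full-length line. On the probe set used, every deletion array was below every full-length array. There the deletion line stayed within a narrow range, while the full-length line was higher at days 4 and 7 than at day 0. The other Peg3 probe sets above the floor read 10.30 and 8.62 on the deletion array of day 4. That was above their 10.15 and 8.36 on the full-length array of day 0. The fitted difference was -0.99 (SE 0.19, adjusted p = 0.275 by limma), and over the 3 Peg3 probe sets above the floor it ran between -1.34 and -0.90. Usp29, a ubiquitin-specific peptidase gene that shares the promoter region of Peg3, had a mean below the floor and was not measured. It was listed at 2.17, 3.24 and 2.24 in the deletion line, against 2.66, 5.72 and 6.06 in the full-length line, so it was above the floor on the 2 later full-length arrays alone. Zim1, the maternally expressed zinc finger gene of the locus, was not measured either and passed the floor on 1 array, the full-length one of day 7, where it read 5.62.

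Nnat encodes neuronatin, a small membrane proteolipid of the nervous system and of endocrine cells. Its levels were 6.40, 8.51 and 6.14 in the deletion line, against 6.60, 9.91 and 9.73 in the full-length line. The lines were close at day 0, both were higher at day 4, and at day 7 the deletion array was back at its day 0 level while the full-length array was not. The difference of -3.59 at day 7 was the lowest of any measured member at any day. The fitted line difference was -1.73 (SE 0.56, adjusted p = 0.331 by limma). It was -0.80 without either array of day 7 and -2.50 without either array of day 0. Of 10 neural markers 7 were measured, and their median difference between the lines was -0.22, -0.52 and -0.74 at days 0, 4 and 7. Their part in the Nnat values was not tested.

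At the locus of Peg10 and Sgce both paternally expressed genes had the course of Nnat in the deletion line. In the full-length line they were higher at day 7 than at day 4, and Nnat was not. Peg10, a gene derived from a retrotransposon that the placenta needs, read 6.12, 7.19 and 6.28 in the deletion line, against 6.42, 7.99 and 8.73 in the full-length line. Sgce, which encodes epsilon-sarcoglycan, read 7.78, 9.71 and 8.19 in the deletion line, against 8.65, 10.06 and 10.68 in the full-length line. At day 7 both were back near their day 0 level in the deletion line and at their highest in the full-length line, with differences of -2.45 for Peg10 and -2.49 for Sgce. The maternally expressed neighbours were closer together. Ppp1r9a, the neurabin gene, read 8.86, 9.27 and 8.20 in the deletion line, against 9.20, 9.06 and 8.82 in the full-length line. Asb4, an ankyrin repeat gene, read 4.91, 6.27 and 4.79 in the deletion line, against 5.37, 6.20 and 6.18 in the full-length line. Asb4 was thus at or near the floor at day 0 in both lines and at day 7 in the deletion line.

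Mest, which encodes a hydrolase of the alpha/beta fold and is strongly expressed in embryonic mesoderm, was the one member called higher at day 7 than at day 0. It read 12.09, 12.73 and 12.89 in the deletion line, against 12.10, 13.09 and 13.73 in the full-length line. The lines started together, both were higher at each later time, and at day 7 the deletion line was lower than the full-length line by 0.84. Day 7 minus day 0 was 1.22 (SE 0.21, adjusted p = 0.0494 by limma), with 0.64% of all genes called higher in this comparison. The call was lost without any 1 of the 6 arrays, with adjusted p between 0.0967 and 0.392. Copg2, a coatomer subunit gene that lies tail to tail with Mest, lay between 10.16 and 10.33 in the deletion line, against 10.42 to 10.63 in the full-length line.

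The locus of Dlk1 and Meg3 held the other called members. There the courses of the 2 lines were alike on the probe sets used. Meg3 is a long noncoding RNA, expressed from the maternal copy like Rian, a host of small nucleolar RNAs, and Mirg, a host of microRNAs. Meg3 read 12.39, 12.43 and 11.32 in the deletion line, against 12.50, 12.48 and 11.53 in the full-length line. Rian read 12.69, 13.30 and 11.67 in the deletion line, against 12.99, 13.60 and 12.49 in the full-length line. Mirg read 9.76, 10.30 and 8.21 in the deletion line, against 10.09, 10.32 and 8.92 in the full-length line. On these probe sets all 3 had their lowest level at day 7 in both lines. Other probe sets above the floor did not all keep the lines this close. A Rian probe set read 8.70 and 5.21 in the deletion line at days 0 and 7, against 7.47 and 6.69 in the full-length line. For the deletion line against the full-length line, a Mirg probe set read 8.39 against 7.35 at day 0. A Meg3 probe set read 4.27 against 7.44 at day 7. Dlk1, the paternally expressed gene of a transmembrane protein with EGF repeats, read 8.91, 7.40 and 6.19 in the deletion line, against 8.70, 7.81 and 6.01 in the full-length line. It was lower at each later time in both lines, and at no time were the lines more than 0.41 apart.

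Between day 7 and day 0, Dlk1 fell by 2.71 (SE 0.34, adjusted p = 0.0250 by limma) and Meg3 fell by 1.02 (SE 0.15, adjusted p = 0.0374 by limma). They were 2 of 35 members called lower, against 0.392% of all genes. Mirg differed by -1.36 and Rian by -0.76, with adjusted p of 0.0549 and 0.0994, and were not called. Both calls were lost without any 1 of the 6 arrays, with adjusted p between 0.0967 and 0.326 for Dlk1 and between 0.127 and 0.330 for Meg3. Over the same days the fitted median of the 18 fibroblast markers was -2.19, with 17 lower and 7 of them called lower, and the part of these cells in the values of Dlk1 and Meg3 was not tested. The 11 Meg3 probe sets did not behave alike: their day 7 minus day 0 differences ran from -1.39 to 0.34.

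Between day 7 and day 4, 0 members were called, against 0.0151% of all genes, and Grb10, Rian, Mirg and Meg3 shared the smallest adjusted p of the members. At least 2-fold lower at day 7 than at day 4 in both lines were 5 of 35 members, against 0.851% of all genes, namely Rian, Mirg, Dlk1, Grb10 and Magel2. At an unadjusted limma p under 0.05, 7 were lower, against 5.63% of all genes, and 1 was higher, Cdkn1c, against 6.29% of all genes. The 7 were those 5 with Meg3 and Gnas. That adjusted p was 0.0897, with differences of -2.09 for Grb10, -1.03 for Meg3, -1.37 for Rian and -1.75 for Mirg, and Cdkn1c differed by 2.56 with an adjusted p of 0.137. Grb10, the maternally expressed gene of an adaptor that restrains insulin receptor signalling, read 9.57, 10.67 and 8.64 in the deletion line, against 10.22, 10.64 and 8.49 in the full-length line. On the probe set used it was highest at day 4 and lowest at day 7 in both lines. The other Grb10 probe set above the floor read 5.85, 6.46 and 6.03 in the deletion line, where day 0 was lowest. It read 6.47, 6.69 and 5.46 in the full-length line.

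**Figure D2:**
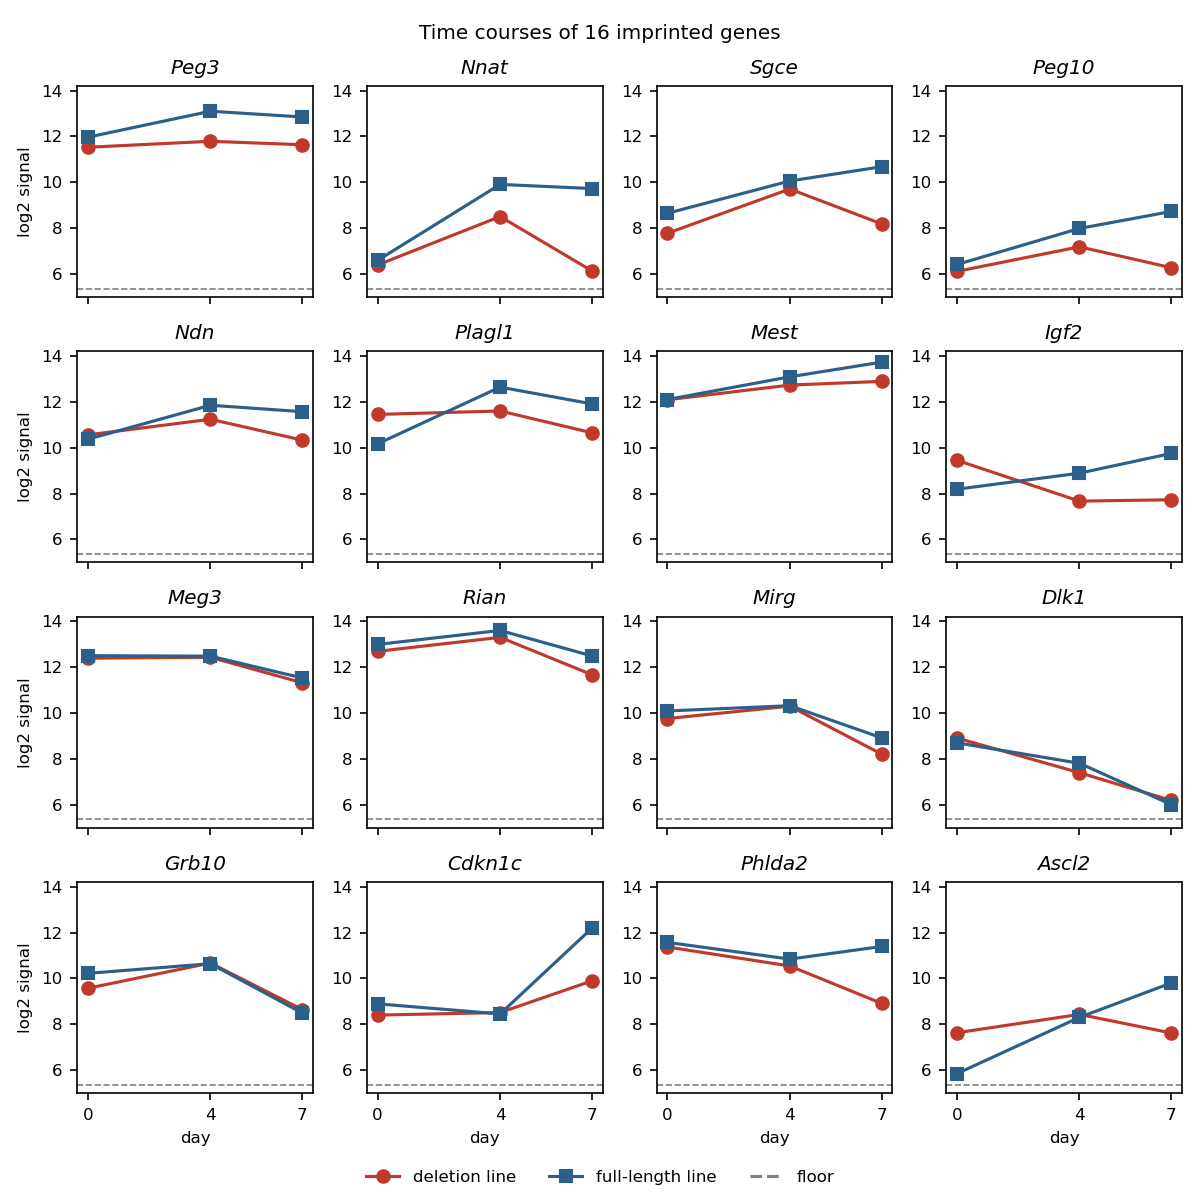
Log2 signal (y axis) at days 0, 4 and 7 (x axis) of 16 members in the deletion line (red circles) and the full-length line (blue squares), 1 array per point; the dashed line is the floor of 5.37. The lines are more than 2 apart at day 7 for Nnat, Sgce, Peg10, Igf2, Cdkn1c, Phlda2 and Ascl2 and run close together for Meg3, Dlk1 and Grb10.

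Igf2, the paternally expressed growth factor gene, ran in opposite directions in the 2 lines. It read 9.45, 7.67 and 7.73 in the deletion line, against 8.19, 8.89 and 9.75 in the full-length line. The deletion line was the brighter one at day 0, by 1.26, and the dimmer one at day 4 and day 7, by differences of -1.22 and -2.02. At day 0 the median difference of the fibroblast markers was 1.02, with 1 of 18 lower in the deletion line. The marker median was 0.00 at day 4 and 0.18 at day 7, when Igf2 was dimmer in the deletion line. At these days 8 and 6 of the 18 markers were lower in the deletion line. Fibroblasts are known to express Igf2, and the part of these cells in the Igf2 values was not tested. H19, the maternally expressed noncoding RNA of the locus, had no probe set that names it alone.

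Igf2r encodes the receptor that clears IGF2, and Airn is the noncoding RNA transcribed across it from the paternal copy. Igf2r lay between 10.19 and 10.54 in the deletion line, against 10.19 to 11.08 in the full-length line. Airn was near the floor: it read 5.75, 5.28 and 5.61 in the deletion line, against 5.79, 6.92 and 6.27 in the full-length line. On the probe set used it was 2-fold apart at day 4 alone. There the deletion array was below the floor, so that the difference of -1.55 is taken from the floor. The other Airn probe set above the floor did not keep this timing. Its lines were less than 2-fold apart at day 4 and more than 2-fold apart at day 7, with the deletion line lower. The 2 genes overlap on opposite strands, and probe sets annotated to both were left out.

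Dcn encodes decorin, a matrix protein of fibroblasts that is imprinted in the placenta. It read 8.92, 5.11 and 7.31 in the deletion line, against 7.26, 6.68 and 7.25 in the full-length line. The deletion line was brighter at day 0 by 1.66, dimmer at day 4 by a difference of -1.31 taken from the floor, and level with the full-length line at day 7. The fibroblast markers followed the same order at day 0, and between day 0 and day 4 their median change was -3.14 in the deletion line, against -1.93 in the full-length line. Their part in the Dcn values was not tested.

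Around Kcnq1ot1, a paternally expressed noncoding RNA that silences its neighbours on that copy, 3 maternally expressed genes parted at day 7. Cdkn1c, an inhibitor of cyclin-dependent kinases, read 8.40, 8.51 and 9.89 in the deletion line, against 8.89, 8.45 and 12.19 in the full-length line. Phlda2, which limits placental growth, read 11.37, 10.54 and 8.91 in the deletion line, against 11.57, 10.84 and 11.39 in the full-length line. Ascl2, a basic helix-loop-helix factor that trophoblast needs, read 7.63, 8.43 and 7.62 in the deletion line, against 5.85, 8.30 and 9.80 in the full-length line. Up to day 4 Cdkn1c and Phlda2 differed by less than 0.5 between the lines, and at day 7 they differed by -2.30 and -2.48. Cdkn1c was higher at day 7 than before in both lines, with a day 7 minus day 0 difference of 2.40 that was not called (SE 0.50, adjusted p = 0.0747 by limma) and was 1.35 without the full-length array of day 7.

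Ascl2 was brighter in the deletion line at day 0, by 1.78, and dimmer at day 7, by a difference of -2.18. The day 0 gap rested largely on 1 probe set. The other 2 Ascl2 probe sets read 6.84 and 6.49 in the deletion line at day 0, against 6.47 and 5.91 in the full-length line, while day 7 readings were 6.78 and 6.82, against 9.50 and 8.86 in the full-length line. Beside these genes, the trophoblast markers had median line differences of -0.09, -0.92 and -1.47 at days 0, 4 and 7, with 7, 10 and 12 of 13 lower in the deletion line. Elf5, a defining trophoblast factor, was below the floor on all 3 deletion arrays and reached 8.22 on the full-length array of day 7. Tpbpa, a marker of the spongiotrophoblast, was not measured. The part of these cells in the values of Cdkn1c, Phlda2, Ascl2 and Peg10 was not tested.

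The rest of the Kcnq1ot1 locus differed little. Kcnq1ot1 itself read 7.81, 7.82 and 7.51 in the deletion line, against 7.61, 8.32 and 7.62 in the full-length line. Cd81, a tetraspanin gene, read 12.56, 12.85 and 12.73 in the deletion line, against 12.92, 13.07 and 12.69 in the full-length line. Tssc4 read 9.76, 9.54 and 9.80 in the deletion line, against 9.51, 9.65 and 9.79 in the full-length line. The lines stayed within 0.50 of each other for these 3 genes at every day. Slc22a18, a transporter gene, read 6.88, 4.59 and 5.74 in the deletion line, against 6.46, 6.27 and 6.65 in the full-length line, and was below the floor in the deletion line at day 4.

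The locus of Snrpn corresponds to the human region of Prader-Willi and Angelman syndromes and holds a group of paternally expressed genes. Ndn, the gene of the growth-restraining MAGE protein necdin, read 10.56, 11.24 and 10.33 in the deletion line, against 10.37, 11.85 and 11.57 in the full-length line. Magel2, of the same family, read 7.08, 7.92 and 6.35 in the deletion line, against 7.17, 9.13 and 7.31 in the full-length line. Mkrn3, a makorin ring finger gene, read 7.45, 8.22 and 7.68 in the deletion line, against 7.34, 7.79 and 8.47 in the full-length line. On the probe sets used, Ndn and Magel2 were nearly equal between the lines at day 0. Ndn was then lower in the deletion line by 0.61 at day 4 and by 1.24 at day 7, and Magel2 by 1.21 and 0.96. Other bright Ndn probe sets read 9.51, 9.95, 9.90 and 10.52 in the deletion line at day 0. They read 10.19, 10.46, 10.15 and 10.38 in the full-length line. Peg12, a relative of the Frat genes, read 6.01, 5.46 and 4.18 in the deletion line, against 5.74, 5.98 and 6.27 in the full-length line. Snrpn, which encodes the splicing protein SmN, read 7.90, 8.52 and 7.74 in the deletion line, against 7.94, 8.30 and 7.74 in the full-length line. Ube3a, a ubiquitin ligase gene imprinted in neurons, lay between 12.06 and 12.15 in the deletion line, against 11.71 to 12.10 in the full-length line. On the probe sets used, Snrpn and Ube3a were thus alike in both lines to within 0.35. Over the 5 Ube3a probe sets above the floor the mean line difference ran from -0.28 to 0.70. Snrpn rests on 1 probe set, since 6 others name it together with Snurf.

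Plagl1 encodes the zinc finger factor ZAC1, which in mouse regulates other imprinted genes. It read 11.45, 11.60 and 10.65 in the deletion line, against 10.17, 12.64 and 11.91 in the full-length line. As with Igf2, the deletion line was brighter at day 0, by 1.28, and dimmer at day 4 and day 7, by differences of -1.04 and -1.26. Slc38a4, an amino acid transporter gene, read 12.14, 12.27 and 12.29 in the deletion line, against 11.63, 11.91 and 12.66 in the full-length line. It was brighter in the deletion line at days 0 and 4 and dimmer at day 7, each time by less than 2-fold.

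Of the remaining measured members, Impact, an inhibitor of the kinase GCN2, lay between 11.93 and 12.07 in the deletion line, against 12.04 to 12.63 in the full-length line. Gnas, whose transcripts include the stimulatory G protein alpha subunit and others specific to either copy, lay between 11.84 and 12.52 in the deletion line, against 12.18 to 13.07 in the full-length line. Nap1l5, a gene inside an intron of Herc3, lay between 5.87 and 7.01 in the deletion line, against 5.63 to 6.82 in the full-length line. On the probe sets used, Impact and Gnas stayed less than 2-fold apart between the lines at every day. A dimmer Impact probe set read 2.54, 4.64 and 4.97 in the deletion line. It read 6.53, 6.89 and 6.46 in the full-length line. Over the 3 Impact probe sets above the floor the mean line difference ran from -1.26 to -0.04. Zrsr1 had no probe set of its own.

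**Figure D3:**
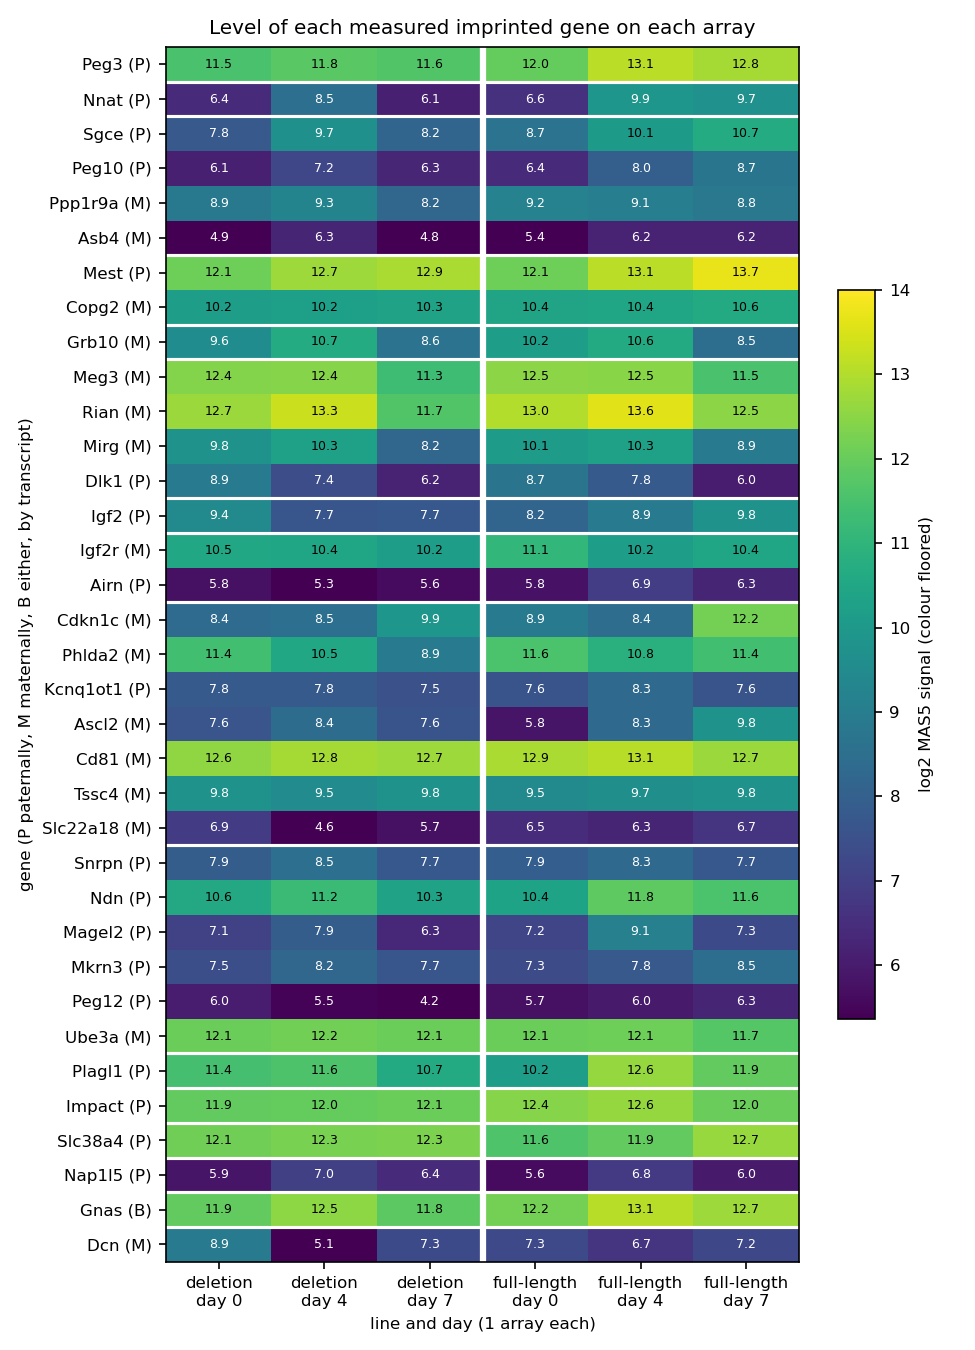
Level of each of the 35 measured members (down the page, ordered by locus, with the expressed copy in brackets) on each of the 6 arrays, the deletion line at left and the full-length line at right. Numbers are log2 signals as deposited, colour is the same value with a floor of 5.37, and white lines part the loci. Rian and Mest reach the highest levels, and the rows of Asb4, Airn and Peg12 lie near the floor.

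At day 4 most members were higher than at day 0, 26 of 35 in the deletion line and 27 of 35 in the full-length line, where 7389 and 6899 of all 13277 genes were. Between day 4 and day 0, 0 members were called, against 1.58% of all genes. At an unadjusted limma p under 0.05, 12 of 35 were higher, against 10.2% of all genes, and 2 were lower, Dlk1 and Dcn, against 6.09% of all genes. Of these 12, 9 are paternally expressed. At least 2-fold higher in the deletion line at day 4 were 5 members, against 6.26% of all genes, namely Nnat, Sgce, Peg10, Grb10 and Nap1l5, and 4 were lower, Dlk1, Igf2, Slc22a18 and Dcn, against 4.07% of all genes. In the full-length line 10 were higher, against 8.14% of all genes, namely Peg3, Nnat, Sgce, Peg10, Airn, Ascl2, Ndn, Magel2, Plagl1 and Nap1l5, and 0 were lower, against 5.03% of all genes. The median change of the 18 paternally expressed members was 0.44 in the deletion line, against 1.06 in the full-length line, and that of the 16 maternally expressed members was 0.09 in the deletion line, against 0.02 in the full-length line.

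Over the whole course, the lines ended in different places. At least 2-fold higher at day 7 than at day 0 in the deletion line was 1 member, Cdkn1c, against 6.25% of all genes, and 8 were lower, against 4.72% of all genes. The 8 were Meg3, Rian, Mirg, Dlk1, Igf2, Phlda2, Slc22a18 and Dcn. In the full-length line 11 were higher, against 9.96% of all genes, namely Nnat, Sgce, Peg10, Mest, Igf2, Cdkn1c, Ascl2, Ndn, Mkrn3, Plagl1 and Slc38a4. Lower in that line were 3, Grb10, Mirg and Dlk1, against 4.27% of all genes. The median change of the paternally expressed members was -0.15 in the deletion line, against 0.95 in the full-length line. The median change of the maternally expressed members was -0.50 in the deletion line, against -0.20 in the full-length line. In the fit, 6 of 35 members were higher at an unadjusted limma p under 0.05, against 10.7% of all genes, and 6 were lower, against 6.58% of all genes.

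**Figure D4:**
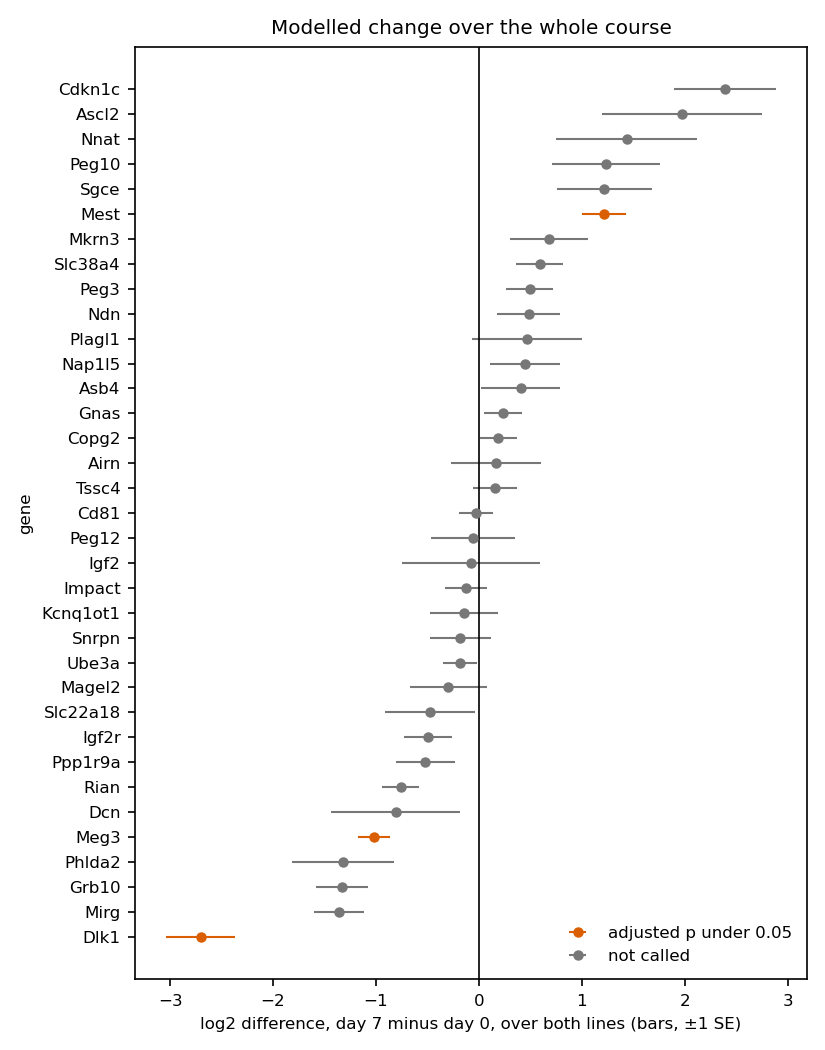
Fitted log2 difference, day 7 minus day 0 over both lines (x axis), of the 35 measured members (y axis), with bars of 1 standard error either way. Orange marks the 3 members called, Mest at 1.22, Meg3 at -1.02 and Dlk1 at -2.71; grey marks those not called.

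The fitted medians over the 35 members were 0.37 for day 4 minus day 0, -0.25 for day 7 minus day 4 and -0.03 for day 7 minus day 0. Over all genes they were 0.04, -0.005 and 0.055. Without the full-length array of day 0 the median for day 4 minus day 0 was 0.21. Without the full-length array of day 7 the median for day 7 minus day 4 was -0.62, and without the deletion array of day 0 the median for day 7 minus day 0 was 0.33. Of 15 members with more than 1 probe set above the floor, all of the probe sets had the same sign in 8 for the line difference and in 13 for day 7 minus day 0.

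Factors known to keep imprints through cell division were measured alongside: 19 of 20 listed were measured, and 0 were called in any comparison. Their median line difference was -0.11, 0.11 and 0.39 at days 0, 4 and 7, with 11, 5 and 3 of 19 lower in the deletion line. Zfp57, whose protein binds methylated imprinted regions, read 7.95, 8.03 and 8.36 in the deletion line, against 8.18, 6.25 and 7.60 in the full-length line. Dppa3, whose protein guards the maternal marks in the zygote, read 11.28, 11.56 and 13.16 in the deletion line, against 12.07, 10.51 and 12.12 in the full-length line. Both were brighter in the deletion line at days 4 and 7 and dimmer at day 0. Dnmt1 read 8.97, 8.37 and 8.94 in the deletion line, against 9.65, 8.77 and 8.91 in the full-length line, a signal that sums whatever remains of the cells' own transcript and the DNMT1 put back, as far as the probe set covers each. Of the other factors with a wide range, Arid4a, Suz12 and Rif1 were brighter in the deletion line at day 7, by 1.33, 0.89 and 1.00.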

How the data were processed

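RNA of 6 samples was hybridised to Affymetrix arrays, 1 for each of 2 lines at days 0, 4 and 7, and samples were grouped by their titles. The deposited values are log2 signals from MAS5, as per the submitters' processing notes, which state neither its version nor a scaling target. The log base was read from the values, which ran from 0 to 15.68. The number of arrays limits the precision, and no label names separate cultures, so a p-value measures only the spread between these arrays.

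Signals were floored at 41.2, the median of the arrays' 40th percentiles, a percentile rather than a background reading. A gene took its brightest probe set among those naming it alone (34945 of 45037 probe sets named 1 gene, by an annotation that can be old). Differences were fitted with limma 3.58.1 in R 4.3.3 over 13277 genes, with line and day as additive factors, a trend in the variance prior, and two-sided p-values adjusted by Benjamini-Hochberg. This left 2 residual degrees of freedom, to which the prior added 5.63, and the fit was tested on simulated data. Members and lists were chosen with earlier results of these data known, so lists are described by counts and medians beside all genes. Single-day counts needed a 2-fold difference and a brighter array of at least 2 times the floor.

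Values on all arrays are given for members called, for members 2-fold or more apart between lines or days where the brighter of the pair was at least 4 times the floor, and for other members of their loci; the rest are given by range. Of the factor and gene lists, up to 6 genes with the widest range are named, and marker genes where brightest or at the floor. Pou5f1, Acta2, Krt8, Krt18 and Cdx2 were named after their values were seen. Alternatives tried were other floors, no filter, the mean of all probe sets, equal medians, quantile normalization, no variance trend, days alone, each array left out and other folds. Sequences came from RefSeq tables on GRCm38.p6.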

Additional observations from a re-analysis of the deposited data

Results flagged for a closer look

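Some members stood on opposite sides in the 2 lines or changed sides between days, each time by at least 2-fold, with 1 array behind each value, so the differences between lines or days were not tested. Igf2 had a day 7 minus day 0 difference of -1.72 in the deletion line, against 1.56 in the full-length line. Its deletion minus full-length difference was 1.26 at day 0, -1.22 at day 4 and -2.02 at day 7. Plagl1 ran likewise, with 1.28 at day 0, -1.04 at day 4 and -1.26 at day 7. Ascl2 had 1.78 at day 0 and -2.18 at day 7. Dcn had 1.66 at day 0 and -1.31 at day 4, where its deletion array was below the floor.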

How the results depend on the processing

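Of 472 refits of the 34 differences fitted for single genes, 433 kept their direction and side of the threshold, 33 lost the call, 5 gained one and 1 reversed, Nnat for day 7 minus day 4, at 0.12 without the deletion array of day 7 (-2.67 to 0.12 over the arrays left out). The cause was not tested. The 3 members called for day 7 minus day 0 became 0 with the floor at the 60th percentile, with no filter, with the mean of all probe sets or with no variance trend, 1 with days alone (Dlk1), 2 with the floor at the 20th percentile (Mest lost), 5 with equal array medians (Cdkn1c and Mirg added), and 0 to 0 with each array left out, which also removes a residual degree of freedom. For day 7 minus day 4, 3 members were called with equal array medians (Grb10, Rian and Mirg), against 0. With each array left out, the members' median ranged from -0.56 to -0.175 for the line difference, from 0.21 to 0.48 for day 4 minus day 0, from -0.62 to -0.0387 for day 7 minus day 4, and from -0.085 to 0.33 for day 7 minus day 0. Members at least 2-fold apart between the lines numbered 0 with the mean of all probe sets and 2 at 3-fold for day 0 (4 before), 2 and 0 for day 4 (7 before), and 18 at 1.5-fold for day 7 (10 before).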

Other observations

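Of 40 further imprinted genes listed, 31 had a probe set of their own and 25 were measured. Between day 4 and day 0, Calcr, the maternally expressed calcitonin receptor gene next to Peg10 and Sgce, was called higher and Ddc, the dopa decarboxylase gene next to Grb10, was called lower. Calcr read 4.83, 7.86 and 5.11 in the deletion line, against 5.49, 9.69 and 8.04 in the full-length line, with a fitted difference of 3.35 that is set by the floor on the deletion side (adjusted p = 0.0413 by limma). Ddc read 10.68, 8.81 and 10.05 in the deletion line, against 10.09, 8.66 and 9.59 in the full-length line, a difference of -1.65 (adjusted p = 0.0226 by limma). Both calls were lost with no filter and without any 1 of the 4 arrays of days 0 and 4, where 0 genes of the whole table were called. Sfmbt2, a Polycomb-like gene imprinted in the placenta, read 9.02, 8.88 and 8.13 in the deletion line, against 8.16, 9.73 and 10.23 in the full-length line, the order of Igf2 and Plagl1. Zdbf2 read 9.94, 9.85 and 9.07 in the deletion line, against 10.26, 11.20 and 8.99 in the full-length line. Over the 25 genes the median line difference was 0.08, 0.00 and -0.25 at days 0, 4 and 7.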
